A study of Mus musculus with 12 samples.

Results

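The 10 genes examined encode effector and redox enzymes of macrophages and a transporter that supplies them, out of 38215 genes in the deposited count table. They were taken from the table by symbol, namely Nos2, Slc7a2, Ass1, Gch1, Acod1, Ptgs2, Ptges, Cybb, Sod2 and Hmox1, and all 10 passed the filter on low counts. Nos2 and Slc7a2, with 0 to 6 reads per library without LPS, passed it through the LPS libraries. RNA came from RAW264.7, an established mouse macrophage line of BALB/c origin, so the values describe a single line and not primary macrophages. Cells received a non-targeting control siRNA or an siRNA against SF3a1, a subunit of the U2 snRNP that helps recognize the branch point during splicing. After 24 hours they were left without LPS or exposed for 4 hours to 20 ng/ml LPS, the bacterial cell wall component sensed by TLR4. This gave 4 groups of 3 cultures, that is, each siRNA in the absence and in the presence of LPS. The comparisons ask how LPS changes these transcripts and how reducing SF3a1 alters them before and during the LPS response.

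Activated macrophages make nitric oxide, itaconate, prostaglandin E2 and superoxide. Nitric oxide comes from arginine through the inducible synthase Nos2, which needs arginine uptake, recycling of citrulline to arginine and the cofactor tetrahydrobiopterin. Acod1 makes itaconate from the citrate cycle intermediate cis-aconitate, Ptgs2 and Ptges act in sequence on arachidonic acid, and Cybb is the catalytic subunit of the phagocyte NADPH oxidase. Sod2 and Hmox1 are protective enzymes that dispose of superoxide in mitochondria and of free heme.

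The deposited values are counts of uniquely mapping reads per gene, and each library had 12746019 to 41091887 reads on genes. They are given here as CPM, the count scaled to the library's total after TMM correction for library composition. Changes written as a number followed by fold, or as a percent of control, are ratios of group mean CPM, while log2 fold changes come from the fit in edgeR and can differ slightly from them. Sf3a1 itself was measured at 173, 216 and 185 CPM with control siRNA without LPS and at 150, 194 and 157 CPM with control siRNA with LPS. With SF3a1 siRNA it was at 27.1, 27.5 and 32.1 CPM without LPS and at 30.3, 26.7 and 45.0 CPM with LPS. All 6 libraries labelled SF3a1 siRNA were thus below all 6 control libraries, and 15.1% of the control level remained without LPS and 20.3% with LPS. The 9 macrophage markers, led by Lyz2, summed to 9483 to 10660 CPM in the 6 control siRNA libraries and to 11040 to 14500 CPM in the 6 SF3a1 siRNA libraries. All SF3a1 siRNA libraries were thus above all control libraries in this sum, and its part in the results was not tested. In contrast 7 T and B cell markers summed to at most 0.423 CPM. Neutrophil, fibroblast, and epithelial and endothelial markers reached at most 1.39, 0.316 and 1.91 CPM. The mannose receptor Mrc1, a marker of alternatively activated macrophages, stayed under 1 CPM in every library. The deepest library of each group was its replicate 1, which had been run 2 times on the sequencer, against 1 run for replicates 2 and 3. Reads outside annotated genes made up 17.75 to 19.83% of control siRNA libraries and 18.2 to 27.2% of SF3a1 siRNA libraries, and the part of this in the results was not tested. In bulk RNA, fewer expressing cells and less transcript per cell cannot be told apart.

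On mouse genome mm10 (GENCODE vM21 coordinates), Nos2 lies at chr11:78920787-78960254, Slc7a2 at chr8:40862396-40922308, Ass1 at chr2:31470207-31520672 and Hmox1 at chr8:75093621-75100589, all on the plus strand. Also on that strand are Acod1 at chr14:103046977-103056573, Ptgs2 at chr1:150100031-150108227 and Sod2 at chr17:13006846-13040063. On the minus strand are Gch1 at chr14:47153895-47189413, Ptges at chr2:30889471-30929863 and Cybb at chrX:9435252-9487771. RefSeq promoter sequences (GRCm38.p6, the same build), from 250 bases before to 50 bases after the transcription start, were at hand for 7 of the 10 genes, and 4 are shown. Gch1 and Sod2 are shown because their levels were the most alike across libraries, Ptgs2 because it rose with SF3a1 siRNA before LPS, and Cybb because it fell. Each sequence runs 5′ to 3′ along the gene's own strand, and capitals mark matches to the motifs named after them.
Gch1, chr14:47189364-47189663, minus strand: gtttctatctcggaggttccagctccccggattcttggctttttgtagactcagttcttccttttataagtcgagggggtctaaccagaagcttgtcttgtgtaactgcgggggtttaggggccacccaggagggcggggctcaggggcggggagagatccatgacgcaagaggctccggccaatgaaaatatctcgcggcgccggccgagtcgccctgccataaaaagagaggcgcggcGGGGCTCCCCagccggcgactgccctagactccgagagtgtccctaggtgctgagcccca
Sod2, chr17:13007589-13007888, plus strand: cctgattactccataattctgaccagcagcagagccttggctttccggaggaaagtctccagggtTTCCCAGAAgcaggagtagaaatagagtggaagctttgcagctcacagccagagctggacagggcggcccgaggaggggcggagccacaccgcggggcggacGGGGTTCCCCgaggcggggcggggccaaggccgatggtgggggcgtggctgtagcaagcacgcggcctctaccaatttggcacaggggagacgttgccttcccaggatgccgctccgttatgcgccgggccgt
Ptgs2, chr1:150099781-150100080, plus strand: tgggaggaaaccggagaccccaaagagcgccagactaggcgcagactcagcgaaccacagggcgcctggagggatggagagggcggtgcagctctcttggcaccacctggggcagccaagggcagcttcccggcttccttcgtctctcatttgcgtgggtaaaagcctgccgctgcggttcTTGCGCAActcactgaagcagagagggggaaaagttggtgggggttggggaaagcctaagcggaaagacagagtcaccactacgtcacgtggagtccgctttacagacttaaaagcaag
Cybb, chrX:9469275-9469574, minus strand: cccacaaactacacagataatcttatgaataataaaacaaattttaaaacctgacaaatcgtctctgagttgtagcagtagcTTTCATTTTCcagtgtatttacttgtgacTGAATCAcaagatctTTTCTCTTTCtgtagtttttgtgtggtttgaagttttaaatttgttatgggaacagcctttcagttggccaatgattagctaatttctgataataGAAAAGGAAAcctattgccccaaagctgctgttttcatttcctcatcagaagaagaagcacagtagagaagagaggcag

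Both strands were searched for the NF-κB consensus, for GAS (TTCNNNGAA), the ISRE core (GAAANNGAAA), AP-1 (TGANTCA), C/EBP (TTGCNNAA), and the antioxidant response element core (TGACNNNGC). The NF-κB consensus was matched once in Gch1, in the last 10 bases before the start, and once in Sod2, and 4.51% of the 32851 promoters in the table hold it. Sod2 also had a GAS match, present in 8.3% of promoters. Ptgs2 had a C/EBP match, as 10.8% of promoters do. Cybb had 3 ISRE core matches and an AP-1 match, which 3.44% and 7.81% of promoters hold. Acod1, Ptges and Ass1, the other promoters in the table, had none of these motifs in the window, and the antioxidant response element core, held by 12.4% of promoters, was matched in none of the 7. These matches describe letters in the sequence and were not set against any binding data.

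To compare the genes with each other, CPM was divided by the length of the longest annotated coding transcript. These lengths are from GENCODE vM21, while reads were counted on an earlier Ensembl annotation. The order of the genes depends on these lengths, and the spread given covers only differences between libraries. Without LPS and with control siRNA, Cybb (79.8 ± 7.8 CPM per kb, SD, n = 3) and Hmox1 (77.8 ± 10.0) had the highest levels and did not differ beyond their spread. Sod2 followed at 19.8 CPM per kb, then Ptgs2 at 6.69, Gch1 at 5.14 and Acod1 at 3.72, and neighbours among these last 3 overlapped in range. Ass1 (0.524), Ptges (0.167), Nos2 (0.0247) and Slc7a2 (0.00561 CPM per kb) were low. With LPS the order was different. Acod1 was first at 1938 ± 299 CPM per kb, above Cybb (293 ± 33), Hmox1 (282 ± 184) and Ptgs2 (226 ± 30), whose ranges overlapped. Nos2 (81.8) and Sod2 (79.8) also overlapped, followed by Gch1 at 48.8, Ass1 at 23.0, Slc7a2 at 5.03 and Ptges at 1.85 CPM per kb.

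**Figure D1:**
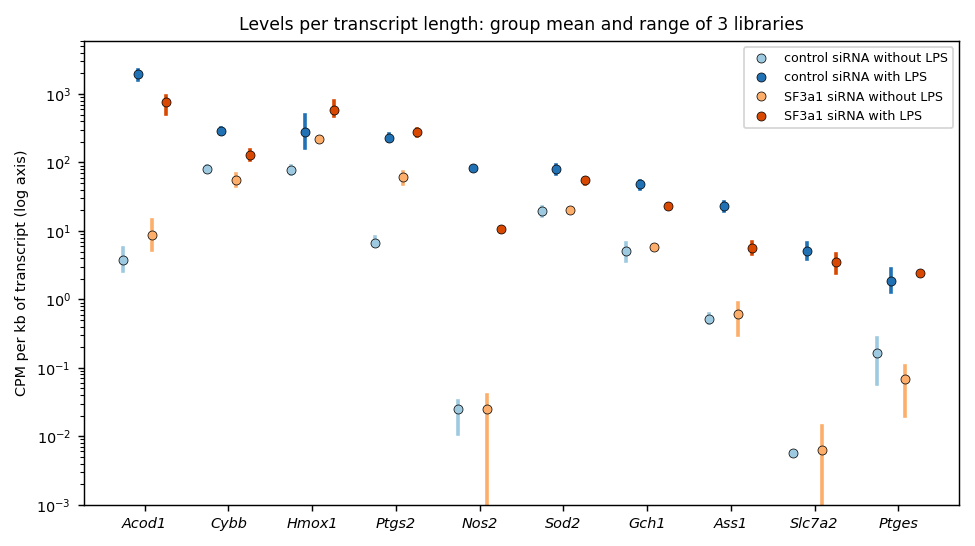
Group mean (points) and range of the 3 libraries (bars) of each gene's level in CPM per kb of transcript, on a log axis that starts at 0.001, for the 4 groups; bars reaching the lower edge include a library at 0. By group mean, Acod1 is the highest gene in both LPS groups, and Nos2 and Slc7a2 are at the bottom in both groups without LPS. With SF3a1 siRNA and LPS the ranges of Acod1 (509.9 to 936.6 CPM per kb) and Hmox1 (480.7 to 796.1) overlap.

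With LPS, transcripts of all 10 genes rose in cells with control siRNA, and their libraries with and without LPS did not overlap for any of them. Across the whole table, edgeR's quasi-likelihood test at an adjusted p of 0.1 called 13.8% of the 14983 genes tested higher and 18.3% lower. The median log2 fold change of the 10 was 4.25, against -0.02 for all genes tested. As the 10 were chosen with earlier results of these data known, their common rise with LPS describes them and does not test the set. With SF3a1 siRNA, LPS also raised all 10, again without overlap, where 6.6% of genes were called higher and 4.06% lower. The share of all genes whose libraries did not overlap was not counted, so the lack of overlap is only a description. The median of the 10 was then 2.71, against 0.01 for all genes. Comparing SF3a1 with control siRNA without LPS, Ptgs2, Hmox1 and Acod1 were called higher and Cybb lower, where 13.7% of all genes were higher and 20.1% lower. In the same comparison with LPS, Nos2, Ass1, Gch1, Cybb, Acod1 and Sod2 were lower and Hmox1 higher, where 18.4% of genes were higher and 20.4% lower. The medians of the 10 in these last comparisons were 0.17 and -0.81, against -0.02 and -0.04 for all genes. Each control group serves more than 1 comparison, so these comparisons are not independent of each other.

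**Figure D2:**
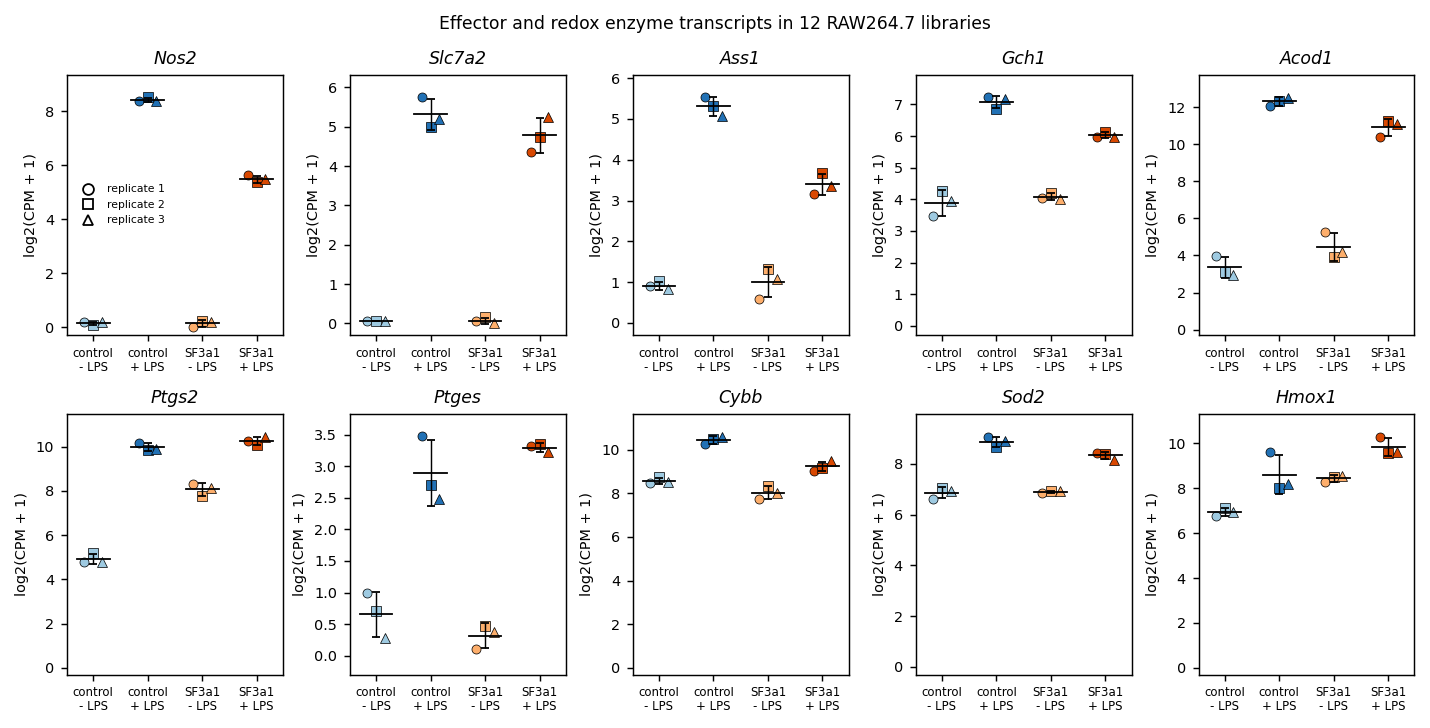
Level of each of the 10 genes in every library, as log2(CPM + 1), in the 4 groups; symbols give the replicate number, horizontal lines the group mean and error bars the SD of 3 libraries. The libraries with LPS lie above those without LPS for every gene within each siRNA, and the 3 SF3a1 siRNA libraries with LPS lie below the 3 control libraries with LPS for Nos2, Ass1, Gch1, Acod1, Cybb and Sod2.

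**Figure D3:**
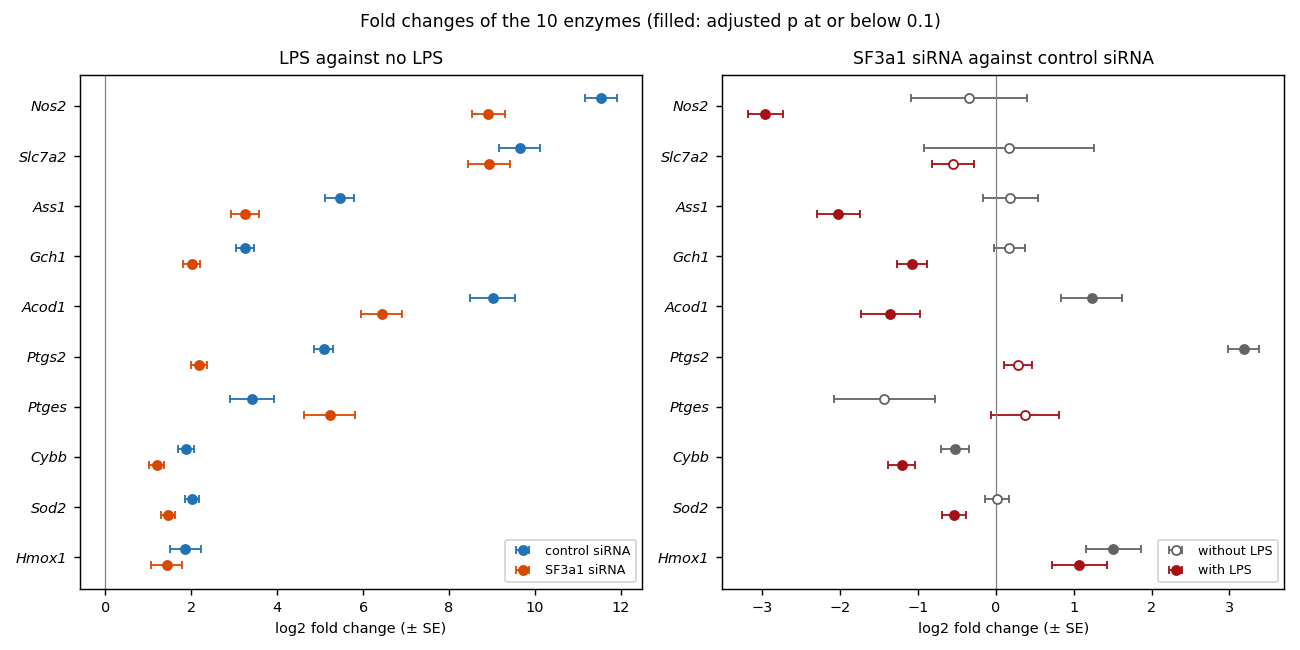
Log2 fold changes with SE from edgeR for the 10 genes, with the LPS effect under each siRNA on the left and the SF3a1 effect with and without LPS on the right; filled points passed an adjusted p of 0.1. Points for LPS lie right of 0 for all 10 genes, and in the right panel Ptgs2 without LPS (3.18) and Nos2 with LPS (-2.96) lie farthest from 0.

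Among the genes of nitric oxide synthesis, Nos2 was almost silent without LPS. It had 6, 1 and 3 reads with control siRNA and 0, 3 and 2 reads with SF3a1 siRNA. With LPS it was at 333, 365 and 330 CPM with control siRNA and at 48.3, 40.2 and 43.5 CPM with SF3a1 siRNA. From pooled counts, LPS raised Nos2 3030-fold with control siRNA (95% exact interval 1650 to 6310, counting error only) and 529-fold with SF3a1 siRNA (226 to 1630). The LPS level with SF3a1 siRNA was 12.8% of that with control siRNA, a log2 fold change of -2.96 ± 0.23 (SE) with an adjusted p of 7.51e-06 (edgeR). This difference was seen in all 3 replicate numbers, and its log2 value lay between -3.03 and -2.90 when any 1 library was left out. Without LPS, 10 against 5 reads over the groups did not allow a difference to be detected (log2 fold change -0.34 ± 0.75).

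Slc7a2, the inducible cationic amino acid transporter that brings in arginine, was likewise near 0 without LPS, with 2, 1 and 1 reads under control siRNA and 1, 2 and 0 reads under SF3a1 siRNA. LPS brought it to 52.9, 30.8 and 35.7 CPM with control siRNA, and SF3a1 siRNA libraries reached 19.4, 25.9 and 36.8 CPM. For LPS the pooled ratio was 993 (387 to 3650) with control siRNA, while SF3a1 siRNA gave 511 (175 to 2480). The fitted log2 values for LPS with any 1 library left out were 9.37 to 9.80 and 8.57 to 9.865 in that order. The LPS libraries of both siRNAs overlapped, and the difference between them (-0.54 ± 0.27) had an adjusted p of 0.148 in edgeR. With the replicate number as a block it was -0.55 with an adjusted p of 0.0789, and without SF3a1 siRNA with LPS replicate 3 it was -0.82 with an adjusted p of 0.0581. Without the 4 replicate 1 libraries the value was -0.085. Gm26584, which overlaps Slc7a2 on the opposite strand, had 1 to 4 reads over each group.

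Ass1, which condenses citrulline and aspartate and so helps to regenerate arginine, had 0.871, 1.03 and 0.767 CPM with control siRNA without LPS and 45.3, 38.6 and 32.9 CPM with LPS. With SF3a1 siRNA it had 0.510, 1.505 and 1.116 CPM without LPS and 7.90, 11.8 and 9.19 CPM with LPS. All 3 SF3a1 siRNA libraries with LPS were thus far below the control libraries with LPS. Mean levels with LPS differed 4.04-fold, with a log2 fold change of -2.02 ± 0.28 and an adjusted p of 0.000243 by edgeR. Reads of Ass1 can be shared with Gm5424, a gene of very similar sequence, whose mean followed the same order at 0.824, 29.8, 0.512 and 7.63 CPM from control siRNA without LPS to SF3a1 siRNA with LPS. The values of Ass1 are therefore uncertain in level.

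Gch1 carries out the first and rate-limiting step of tetrahydrobiopterin synthesis. It had 10.0, 18.3 and 14.4 CPM with control siRNA without LPS and 148.6, 114.8 and 143.0 CPM with LPS. With SF3a1 siRNA it had 15.4, 17.4 and 15.3 CPM without LPS and 62.3, 69.5 and 61.7 CPM with LPS. Without LPS the libraries of both siRNAs overlapped, whereas with LPS they were apart, at 47.6% of the control level with SF3a1 siRNA. This log2 fold change was -1.07 ± 0.19 with an adjusted p of 0.00126 in edgeR. In GENCODE vM21 Gch1 overlaps Gm18811 on the same strand and Gm49134 on the opposite strand, so its counts could include reads of these genes.

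Of 15 other genes of nitric oxide, arginine and tetrahydrobiopterin metabolism, 12 were tested. With LPS and control siRNA, 2 rose and 3 fell, with a median log2 fold change of -0.09, where 13.8% of all genes rose and 18.3% fell. The ornithine decarboxylase gene Odc1 rose 3.24-fold and Slc3a2, a partner subunit of amino acid transporters, 2.08-fold. With SF3a1 siRNA, Pts, the second enzyme of tetrahydrobiopterin synthesis, was lower in both conditions. It was at 22.5 ± 7.1 CPM with control siRNA and 2.74 ± 0.66 CPM with SF3a1 siRNA without LPS (log2 fold change -3.04, adjusted p = 0.000235 by edgeR, n = 3). In the presence of LPS it was at 18.9 ± 9.6 and 3.44 ± 1.28 CPM (-2.47, adjusted p = 0.00063). Spr, the last enzyme of the path, and Gchfr, which encodes the feedback regulator of Gch1, were 1.35-fold and 1.65-fold higher with SF3a1 siRNA and LPS. Each of these calls was lost when any of 4 single libraries was left out, with log2 values down to 0.29 for Spr and 0.49 for Gchfr. Asl, which releases arginine from the product of Ass1, fell by 0.54 without LPS and by 0.62 with LPS on the log2 scale. Slc7a1, the constitutive arginine transporter, was not called in any comparison without the replicate block, which gave -0.42 and -0.52 for SF3a1 siRNA without and with LPS (adjusted p = 0.0903 and 0.0347 by edgeR), and had 237, 307, 184 and 216 CPM on average. In this list SF3a1 siRNA gave 1 higher and 4 lower of 12 without LPS, where 13.7% and 20.1% of all genes were called, and 3 higher and 3 lower with LPS, where it was 18.4% and 20.4%. The single higher gene without LPS, Odc1, lost its call without SF3a1 siRNA replicate 1 (0.35, adjusted p = 0.177), and the lower count was 2 without control siRNA replicate 2 or 3 or SF3a1 siRNA replicate 2. With LPS, 1 was higher when control siRNA replicate 3 or SF3a1 siRNA replicate 2 was left out. The replicate block gave 2 higher and 6 lower without LPS and 4 higher and 5 lower with LPS, while the shares of all genes above are without the block.

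Acod1 rose with LPS from 14.8, 7.55 and 6.86 CPM to 4244, 5202 and 5801 CPM with control siRNA. With SF3a1 siRNA it had 38.1, 13.9 and 16.9 CPM without LPS and 1338, 2457 and 2170 CPM with LPS. The log2 fold change for LPS was 9.01 ± 0.53 with control siRNA and 6.43 ± 0.47 with SF3a1 siRNA. Before LPS, Acod1 was higher with SF3a1 siRNA in each replicate number (1.23 ± 0.39, adjusted p = 0.0336 by edgeR), but the groups overlapped. That call was lost when control siRNA without LPS replicate 2 or 3 was left out (1.16 and 1.11, adjusted p = 0.101 and 0.102) and without SF3a1 siRNA without LPS replicate 1 (0.65, adjusted p = 0.203). With LPS the direction was the opposite, since the SF3a1 siRNA libraries were at 39.1% of the control mean without overlap (-1.35 ± 0.38, adjusted p = 0.0166).

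Among 16 other genes of citrate, aconitate and succinate metabolism, 0 rose and 5 fell with LPS and control siRNA (median log2 fold change -0.23), where 13.8% of all genes rose and 18.3% fell. The 5 included both Idh1 and Idh2, the isocitrate dehydrogenases that use NADP, by 0.72 and 0.57 on the log2 scale. The call for Idh2 was lost without replicate 1 of control siRNA without or with LPS (-0.49 and -0.46, adjusted p = 0.119 and 0.109 by edgeR). The count that fell was 2 to 5 with 1 library left out, at 3 without replicate 1 or 2 of control siRNA without LPS or replicate 1 with LPS and at 2 without replicate 3 of control siRNA without LPS. With SF3a1 siRNA these enzymes moved in opposite directions. Idh1, the cytosolic form, was 1.54-fold higher without LPS and 2.52-fold higher with LPS, whereas Idh2, the mitochondrial form, was 2.41-fold and 1.65-fold lower. Clybl, which acts on citramalyl-CoA in the breakdown of itaconate, fell by 1.37 without LPS and by 1.27 with LPS on the log2 scale. In all, 2 of the 16 were higher and 5 lower without LPS, against 13.7% and 20.1% of all genes, and 3 were higher and 3 lower with LPS, against 18.4% and 20.4%. Without LPS the lower count was 3 without control siRNA replicate 2 or 3 or SF3a1 siRNA replicate 1 or 3, and the higher count was 1 without SF3a1 siRNA replicate 3. With the replicate number as a block, 5 were higher and 4 lower with LPS, while the shares of all genes above are without the block.

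Ptgs2, the inducible cyclooxygenase, had another pattern. It was at 26.9, 35.8 and 26.7 CPM with control siRNA without LPS and at 318, 216 and 275 CPM with SF3a1 siRNA without LPS. The lowest SF3a1 siRNA library was thus several times the highest control library, and the mean was 9.07-fold higher (log2 fold change 3.18 ± 0.20, adjusted p = 4.55e-06 by edgeR). With LPS the levels were 1159, 908 and 946 CPM with control siRNA and 1205, 1079 and 1382 CPM with SF3a1 siRNA, and these overlapped (0.28 ± 0.18, adjusted p = 0.269). LPS therefore raised Ptgs2 33.7-fold with control siRNA and 4.53-fold with SF3a1 siRNA from different starting levels.

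Ptges, the inducible prostaglandin E synthase that works downstream of Ptgs2, was low. It had 0.986, 0.626 and 0.213 CPM with control siRNA without LPS and 0.0729, 0.390 and 0.298 CPM with SF3a1 siRNA without LPS. With LPS it reached 10.2, 5.48 and 4.60 CPM with control siRNA and 8.96, 9.19 and 8.33 CPM with SF3a1 siRNA. The LPS libraries overlapped between siRNAs, and edgeR gave no call with LPS (0.37 ± 0.44, adjusted p = 0.575). The difference without LPS (-1.43 ± 0.65) missed the threshold at an adjusted p of 0.12. It passed with the replicate number as a block (-1.46, adjusted p = 0.0725), without control siRNA without LPS replicate 3 (-1.72, adjusted p = 0.0564) and without SF3a1 siRNA without LPS replicate 2 (-1.98, adjusted p = 0.0984). Without the 4 replicate 1 libraries it was -0.25 without LPS, and with LPS 0.80 with an adjusted p of 0.0531. Gm13400, which overlaps Ptges on the same strand, had 0.295 to 0.354 CPM on average in each group.

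Of 15 other eicosanoid genes, 13 were tested. With LPS and control siRNA 1 rose and 9 fell, a median log2 fold change of -0.72 against -0.02 for all genes, of which 13.8% rose and 18.3% fell. With 1 library left out, 6 to 8 fell. The prostaglandin E2 receptor gene Ptger2 rose 48.5-fold from 0.353 to 17.1 CPM. Hpgd, which inactivates prostaglandins, fell from 11.6 to 0.263 CPM, and Ptgs1, the constitutive cyclooxygenase, from 15.9 to 2.82 CPM. For Hpgd the log2 fold change of -5.65 was -5.00 without control siRNA with LPS replicate 1 and -4.90 without the 4 replicate 1 libraries. The constitutive Ptges2 fell by 0.54 on the log2 scale, and Ptges3, a cytosolic form, was at -0.06 without a call. With SF3a1 siRNA without LPS, Ptges3 was called lower (-0.36, adjusted p = 0.082 by edgeR), but not when any of 5 of the 6 libraries was left out (-0.39 to -0.19) nor in DESeq2 (-0.30, adjusted p = 0.108), with RLE size factors (-0.30, adjusted p = 0.134) or with no filter (-0.38, adjusted p = 0.232). With SF3a1 siRNA without LPS, 2 rose and 3 fell, where 13.7% and 20.1% of all genes did. Ptger2 was 3.53-fold higher (log2 fold change 1.93), a call lost without the 4 replicate 1 libraries (1.03, adjusted p = 0.149 by edgeR), whereas Hpgd and Ptgs1 were 2.81-fold and 2.4-fold lower. With LPS, 2 were higher and 2 lower with SF3a1 siRNA, where 18.4% and 20.4% of all genes were called, the lower ones being Ptger2 (2.78-fold lower) and the thromboxane synthase gene Tbxas1 (4.14-fold lower). The leukotriene genes Alox5ap and Ltc4s were 1.75-fold and 2.37-fold higher there, and the call for Ltc4s was lost without SF3a1 siRNA with LPS replicate 3 (1.065, with an adjusted p just past the threshold). Without LPS, 1 was higher when control siRNA replicate 1 or SF3a1 siRNA replicate 2 or 3 was left out. The replicate block gave 3 higher and 6 lower without LPS and 4 higher and 3 lower with LPS, and without the 4 replicate 1 libraries 5 were higher with LPS. The shares of all genes above are from neither of these fits.

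Cybb, already abundant without LPS, had 355, 422 and 360 CPM with control siRNA and 214, 322 and 256 CPM with SF3a1 siRNA. With LPS it was at 1218, 1431 and 1527 CPM with control siRNA and at 523, 573 and 711 CPM with SF3a1 siRNA. In both conditions every SF3a1 siRNA library was below every control library. The log2 fold change with LPS was -1.21 ± 0.18 (adjusted p = 0.000338 by edgeR), which left 43.3% of the control level. Without LPS it was -0.52 ± 0.18 (adjusted p = 0.0436), and this call rested on single libraries. The value was -0.47 and -0.36 without control siRNA without LPS replicates 1 and 2, -0.47 without replicate 3, and -0.39 and -0.50 without SF3a1 siRNA without LPS replicates 1 and 3, with adjusted p of 0.11, 0.24, 0.131, 0.16 and 0.127.

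The other subunits of the NADPH oxidase did not follow a single direction. Ncf1, which organizes the cytosolic subunits, was at 645 ± 20 CPM with control siRNA and 305 ± 7 CPM with SF3a1 siRNA without LPS (-1.08, adjusted p = 5.86e-05 by edgeR). With LPS it was at 613 ± 53 and 227 ± 4 CPM (-1.43, adjusted p = 1.08e-05). Reads of Ncf1 had little spread between replicates. Ncf4, another cytosolic subunit, fell by 0.90 without LPS and by 1.21 with LPS on the log2 scale. In contrast Cyba, the membrane partner of Cybb, was 1.65-fold higher without LPS and 1.36-fold higher with LPS. The latter call was lost without control siRNA with LPS replicate 1 or 2 or SF3a1 siRNA with LPS replicate 2 (0.36, 0.45 and 0.28, adjusted p = 0.138, 0.11 and 0.199 by edgeR). The small GTPase gene Rac2 was at 0.27 and -0.11 without a call. Nox1, a related catalytic subunit that macrophages express weakly, rose from 0.142 to 1.30 CPM without LPS. With LPS it was at 2.88 CPM with control siRNA and at 18.7, 3.81 and 6.98 CPM with SF3a1 siRNA, a mean of 9.83 CPM. This second difference rested on replicate 1, since without that library the mean was 5.39 CPM and the log2 fold change went from 1.79 to 0.92 with an adjusted p of 0.196 in edgeR. Of the 8 genes listed 7 were tested, with 2 higher and 2 lower without LPS, where 13.7% and 20.1% of all genes were called, and 4 higher and 2 lower with LPS, where it was 18.4% and 20.4%. LPS alone raised Rac2, Cyba and Nox1 with control siRNA and lowered 0 of the 7, where 13.8% of all genes rose and 18.3% fell.

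**Figure D4:**
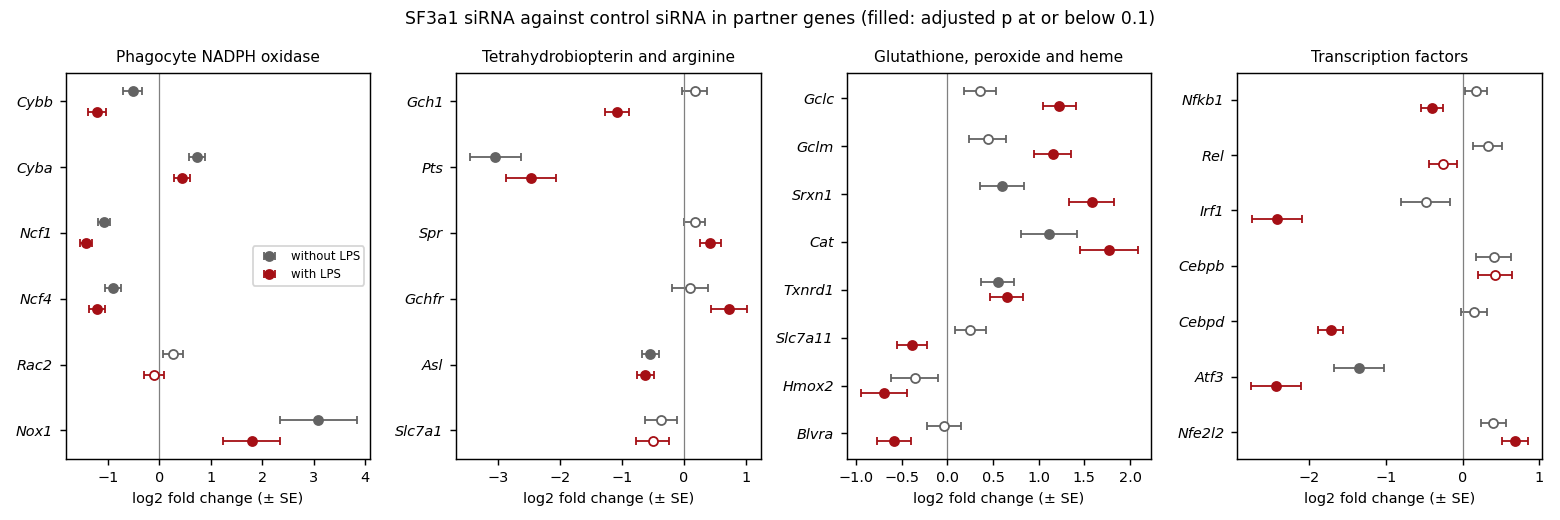
Log2 fold changes with SE from edgeR for SF3a1 against control siRNA, without LPS (grey) and with LPS (red), for Cybb and Gch1 and for partner genes in 4 groups; filled points passed an adjusted p of 0.1. Ncf1, Ncf4 and Pts lie left of 0 in both conditions, Cyba, Cat and Srxn1 right of 0 in both, and Irf1 (-2.42) and Atf3 (-2.43) are farthest left among the transcription factors with LPS.

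Sod2, the mitochondrial superoxide dismutase, had 96.7, 130 and 122 CPM with control siRNA and 113, 120 and 120 CPM with SF3a1 siRNA without LPS. The 2 siRNAs overlapped there (0.02 ± 0.15). With LPS it was at 532, 398 and 472 CPM with control siRNA and at 345, 336 and 285 CPM with SF3a1 siRNA, all 3 below the control libraries. The log2 fold change was -0.54 ± 0.15 with an adjusted p of 0.0176 in edgeR, so that 68.9% of the control level was reached.

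Hmox1, which degrades heme to biliverdin, iron and carbon monoxide, differed from the other genes in that SF3a1 siRNA raised it with and without LPS. Without LPS it had 107, 138 and 121 CPM with control siRNA and 307, 364 and 372 CPM with SF3a1 siRNA (1.51 ± 0.36, adjusted p = 0.00723 by edgeR). With LPS it had 776, 259 and 293 CPM with control siRNA and 1249, 754 and 792 CPM with SF3a1 siRNA (1.07 ± 0.35, adjusted p = 0.0345). Replicate 1 was the highest library of both LPS groups, and replicate 1 of control siRNA with LPS overlapped the SF3a1 siRNA libraries. Leaving that library out gave 1.76 with an adjusted p of 0.000194, and leaving out the 4 replicate 1 libraries gave 1.48 with an adjusted p of 2.13e-05. The call was lost without control siRNA with LPS replicate 2 or 3 (0.80 and 0.85, adjusted p = 0.121 and 0.122) and without SF3a1 siRNA with LPS replicate 1 (0.81, adjusted p = 0.128). LPS raised Hmox1 by 1.86 ± 0.36 with control siRNA, and by 1.18 without its replicate 1. With SF3a1 siRNA it was raised by 1.42 ± 0.35 (adjusted p = 0.0272), and without SF3a1 siRNA without LPS replicate 1 the value was 1.34 with an adjusted p of 0.104.

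Of 26 other antioxidant and heme genes, 25 were tested. With SF3a1 siRNA and LPS, 6 were higher and 4 lower, where 18.4% and 20.4% of all genes were called. Gclc and Gclm, the subunits of the enzyme that limits glutathione synthesis, were 2.34-fold and 2.22-fold higher. The sulfiredoxin gene Srxn1 was 3-fold higher, catalase (Cat) 3.41-fold higher, and the transcription factor gene Nfe2l2, which acts on many of these genes, 1.6-fold higher. The 4 lower genes were G6pdx, Slc7a11, Hmox2, the constitutive heme oxygenase, and Blvra, which reduces biliverdin. Hmox2 and Blvra were at 61.8% and 66.8% of the control level. With 1 library left out, G6pdx ran from -0.91 to -0.64 on the log2 scale and kept its call. Slc7a11 was at -0.385 (adjusted p = 0.0961 by edgeR) and lost its call without any of 5 of the 6 libraries. Any part of Nfe2l2 in these values was not tested. The call for Hmox2 was lost without control siRNA with LPS replicate 1 (-0.39) or SF3a1 siRNA with LPS replicate 2 (-0.64) or 3 (-0.51), and that for Blvra without control siRNA with LPS replicate 3 (-0.48). Without LPS 4 were higher and 3 lower, against 13.7% and 20.1% of all genes, with Cat (2.16-fold higher), Txnrd1 (1.46-fold higher), G6pdx (1.75-fold lower) and Sod1 (1.72-fold lower) among them. The call for Sod1 was lost without control siRNA without LPS replicate 2 or 3 (-0.64 and -0.59), and that for Txnrd1 without SF3a1 siRNA without LPS replicate 1 (0.51). Of the counts without LPS, 2 were higher without any 1 of the SF3a1 siRNA replicates and 1 lower without control siRNA replicate 3. The replicate block gave 9 higher and 4 lower without LPS and 11 higher and 6 lower with LPS, and leaving out the 4 replicate 1 libraries gave 8 higher without LPS. The shares of all genes here are from neither of these fits. With LPS the lower count was 2 without control siRNA replicate 3. With LPS and control siRNA 7 rose and 2 fell, where 13.8% and 18.3% of all genes did, and 4 fell without control siRNA with LPS replicate 1, 6 without the 4 replicate 1 libraries and 5 with the replicate block. The metallothionein gene Mt2 rose 18.9-fold and the cystine transporter gene Slc7a11 14-fold, while Gclc fell by 1.48 on the log2 scale.

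The difference between the LPS effects under the 2 siRNAs was tested as an interaction in edgeR, for which 1.54% of all genes were called higher and 1.94% lower. Of the 10 genes 4 were called, all lower, for Ptgs2 (-2.90 ± 0.26, adjusted p = 0.000397), Ass1 (-2.20 ± 0.45, adjusted p = 0.0275), Acod1 (-2.59 ± 0.54, adjusted p = 0.0304) and Gch1 (-1.25 ± 0.28, adjusted p = 0.0381). These values mean that the log2 rise with LPS was smaller by that amount with SF3a1 siRNA. In Ptgs2 the LPS levels overlapped and the levels without LPS differed, in Ass1 and Gch1 it was the reverse, and in Acod1 the siRNA effects had opposite signs. The call for Gch1 was lost without SF3a1 siRNA without LPS replicate 2 (-1.19, adjusted p = 0.107). For Nos2 the value was -2.62 ± 0.87 with an adjusted p of 0.173, where the few reads without LPS limit the estimate. With 1 library left out it ran from -3.46 to -1.89, the latter without SF3a1 siRNA without LPS replicate 2 (adjusted p = 0.737). It passed without SF3a1 siRNA without LPS replicate 1 (-3.46, adjusted p = 0.0326) and without the 4 replicate 1 libraries (-3.87, adjusted p = 0.0191). For Cybb it was -0.69 ± 0.25 (adjusted p = 0.218), and with the replicate number as a block -0.67 with an adjusted p of 0.0431. The other values were -0.56 for Sod2, -0.44 for Hmox1, -0.72 for Slc7a2 and 1.80 for Ptges, without a call.

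Transcripts of 9 transcription factors known to act on these genes were examined as a list. With LPS and control siRNA 7 rose, as did 7 with SF3a1 siRNA, where 13.8% and 6.6% of all genes rose. Between siRNAs, 4 were lower with SF3a1 siRNA and LPS and 0 higher, with a median log2 fold change of -0.27, where 18.4% of all genes were higher and 20.4% lower. Of the 9, 2 were higher without control siRNA with LPS replicate 1 or with the replicate block, 1 without SF3a1 siRNA with LPS replicate 1 and 3 without the 4 replicate 1 libraries. Irf1, an interferon-responsive factor, had a mean of 208 CPM with control siRNA and 39.0 CPM with SF3a1 siRNA. The C/EBP family gene Cebpd was at 161 and 48.8 CPM, and Atf3, a stress-induced repressor, at 161 and 29.9 CPM. Nfkb1 differed less, at 1307 and 990 CPM (-0.40, adjusted p = 0.0475 by edgeR), and that call was lost without control siRNA with LPS replicate 3 or SF3a1 siRNA with LPS replicate 1 or 2 (-0.34, -0.37 and -0.34). Without LPS, Atf3 was lower with SF3a1 siRNA, where 20.1% of all genes were, and 8 of the 9 were not called.

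Across the 12 libraries, likeness was measured as Pearson's r of log2(CPM + 1). The libraries fall into groups with and without LPS, so these values mainly describe that contrast. Sod2 and Gch1 were the most alike pair of the 10, with r = 0.993. Nos2 was most like Cish and Ifit3b (r = 0.998 for both), Acod1 most like Nfkb1 and Zc3h12a (0.996 and 0.994) and Slc7a2 most like Slc7a11 and Oasl1 (0.994 and 0.993). The genes nearest to Cybb were Ifi44l and Gm8995 (0.988 and 0.987), to Ptgs2 Rnf19b and Myc (0.993 and 0.988), and to Ptges Tpbg and Slc7a2 (0.977 and 0.962). Ass1 was nearest to Gm5424 and Ppfia3 (0.993 for both), Sod2 after Gch1 to Hdc (0.992), and Gch1 after Sod2 to Ifi202b (0.993). Hmox1 was nearest to Procr and Sec23b (0.991 and 0.987) and stood apart from most of the 10, with r = 0.275 to Cybb and 0.515 to Ass1 but 0.871 to Ptgs2.

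Exon usage was examined from the deposited exon bin counts, where a bin is a stretch of exon shared by the same transcripts. Of 137 bins in the 10 genes, 119 passed the filter, led by Nos2 with 27, Cybb with 19 and Ass1 with 17. With edgeR's diffSpliceDGE 0 of the 119 were called in each of the 4 comparisons. For Nos2 (27 bins) and Slc7a2 (15 bins) this says little wherever a group without LPS is compared. Over all its bins, Nos2 had 12 and 8 counts without LPS with control and SF3a1 siRNA, and Slc7a2 had 4 and 3. Bins of these genes passed the filter through the LPS libraries and could be compared only between the siRNAs with LPS. Across all 153624 bins tested, 0.0801% were called for LPS with control siRNA, 0.0254% for LPS with SF3a1 siRNA, 0.626% for SF3a1 siRNA in unstimulated cells and 0.492% in cells with LPS. At an unadjusted p under 0.05 there were 1, 2, 1 and 2 bins of the 10 genes in that order, and limma-voom's diffSplice, which also called 0, gave 2, 5, 0 and 10. For LPS-treated control cells, only replicates 1 and 2 entered this exon analysis. The shares over all bins depended on single libraries. For SF3a1 siRNA in unstimulated cells, 527 to 617 bins were called in place of 961 without replicate 2 or 3 of either siRNA. In cells with LPS, 461 and 443 were called in place of 756 without SF3a1 siRNA replicate 2 and 3.

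Some bins still show which forms of the transcripts were made. Slc7a2 has a pair of coding exons of which a transcript keeps one, at chr8:40908056-40908195 and chr8:40908398-40908534 (mm10), and the choice is known to set the transporter's affinity for arginine. In the LPS libraries the upstream exon had 51 and 11 reads with control siRNA and 20, 16 and 19 reads with SF3a1 siRNA. The downstream exon had 1 read under each siRNA. Of 119 reads on either exon, 1.68% were on the downstream one (95% Wilson interval 0.462 to 5.92%, counting error only), so the upstream exon was used in nearly all transcripts that could be assigned, under both siRNAs. In Ptges, a bin at chr2:30897363-30897469 lies in an intron of the coding transcript and belongs to a transcript annotated without a coding sequence. Among LPS libraries it took up 2.14 and 2.13% of all Ptges bin counts in control cells, and 11.1, 6.45 and 5.88% with SF3a1 siRNA. Although these libraries do not overlap, the counts were few (2 to 43 per library) and diffSpliceDGE gave an adjusted p of 1. In Cybb, the last exon at chrX:9435252-9438343 held 42.0 to 43.6% of bin counts in the 4 replicate 1 libraries and 46.5 to 52.4% in the other 7. At the same replicate number and siRNA, the share was lower with LPS than without in all 5 pairs of libraries that could be compared, and no bin of Cybb was called.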

How the data were processed

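RNA from the 12 cultures was polyadenylated RNA sequenced from one end on an Ion Proton. The authors mapped reads of at least 30 nt to mm10 with GSNAP, kept uniquely mapping reads and deposited raw counts per Ensembl gene (HTSeq) and counts per exon bin, neither of them normalized. Whether counting used the strand is not given in the sources used here, so overlapping genes on opposite strands may share reads. Reads outside genes (17.75 to 27.2%) and ambiguous reads (0.431 to 0.53%) stayed out of library sizes. Groups follow the sample labels.

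Counts of all 12 libraries were fitted with edgeR 4.0.16 (quasi-likelihood test, TMM scaling, filterByExpr, no block, R 4.3.3) and 14983 genes were tested, with Benjamini-Hochberg adjustment over all of them and calls at 0.1. The comparisons were LPS against no LPS under each siRNA, SF3a1 against control siRNA with and without LPS, and the interaction. Log2 fold changes are edgeR's with a prior count of 0.125, values written as N-fold or as a percent of control are ratios of group mean CPM, and SEs come from the F statistic. P-values measure the spread between these cultures. Exon bins of 11 libraries were tested with diffSpliceDGE in genes with at least 2 bins kept. Alternatives were DESeq2 1.42.0, limma 3.58.1 diffSplice, other scaling and filters, a replicate block and leaving out libraries. Leaving out the 4 replicate 1 libraries together was chosen after seeing the data. Python 3.11.15 with scipy 1.17.1 and matplotlib 3.10.9 was used for summaries. Simulated counts were run through the edgeR gene fit for the LPS and SF3a1 comparisons and through the bin fit for the SF3a1 comparisons. The interaction, the block, DESeq2 and limma were not simulated, and outcomes are not given here.

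Libraries with the same replicate number deviated together, since the correlation of deviations from group means was over 0.1 in 18 of 18 pairs (0.143 to 0.6, median 0.357). Of 36 pairs with different numbers, 10 were over 0.1 (-0.523 to 0.345, median -0.308). Pairs of replicate 1 gave 0.408 to 0.6. Among replicates 2 and 3, pairs of the same number gave 0.143 to 0.458 and pairs of different numbers 0.0401 to 0.345, so their pairing is less clear. The numbers come from the sample titles and were taken as pairing the samples. Blocked values are printed where they change the call of 1 of the 10 genes, and mainly as counts for the related genes. Shares of all genes called come from the fit of all libraries without the block. The 10 genes and the lists of related genes were chosen from general knowledge with earlier results of these data known. Named from each list were at most 4 called genes with the smallest adjusted p per comparison, a few partner genes fixed in advance (Cyba, Ncf1, Ncf4, Rac2, Ptges2, Ptges3, Ptgs1, Asl, Slc7a1, Pts, Spr and Gchfr), and per gene the 2 with the highest r. Of these lists 5 genes are not reported here and are left out of the counts. A few further called genes were named after their values were seen. Promoters are from RefSeq (GRCm38.p6).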

Additional observations from a re-analysis of the deposited data

Results flagged for a closer look

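For 4 of the 10 enzymes the SF3a1 siRNA effect with LPS differed from that without LPS by the interaction test in edgeR, with log2 differences of -2.90 for Ptgs2, -2.59 for Acod1, -2.20 for Ass1 and -1.25 for Gch1. Among 92 related genes tested the same test gave a difference for 6 (6.52%), 1 higher and 5 lower, where 1.54% of all genes were called higher and 1.94% lower. With the replicate number as a block 23 were called (25%), 11 higher and 12 lower, where calls over all genes went from 520 to 1756. The Fc receptor gene Fcgr1, used here as a macrophage marker, had the value -2.83 (adjusted p = 0.00149), since LPS raised it from 64.2 to 456 CPM with control siRNA while it was at 49.4 and 49.5 CPM with SF3a1 siRNA. For the transcription factors the values were -1.94 for Irf1 and -1.87 for Cebpd. Eicosanoid genes complete the set, with -3.42 for Ptger2, -1.88 for Tbxas1 and 2.49 for Hpgd, the value above 0. Without the 4 replicate 1 libraries these were -2.35 for Ptger2, -1.37 for Tbxas1 and 1.74 for Hpgd, and the calls for Tbxas1 and Hpgd were lost (adjusted p = 0.232 and 0.11). Their adjusted p ran from 0.00149 for Fcgr1 to 0.0809 for Tbxas1. When single libraries were left out, the calls for Hpgd (1.83 to 3.05), Tbxas1 (-2.32 to -1.63) and Irf1 (-2.25 to -1.68) were lost for 7, 9 and 4 of the 12 libraries. For Ptgs2 the SF3a1 siRNA effect was 3.18 without LPS and 0.28 with LPS, and for Ptger2 it was 1.93 and -1.49.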

How the results depend on the processing

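Counts of the 10 enzymes called stayed within 1.5 times the reported ones under other scaling, DESeq2, no filter, fits of the compared groups alone, the replicate block and without the 4 replicate 1 libraries. With the replicate block they were 10 and 10 for LPS, 5 for SF3a1 siRNA without LPS, 8 with LPS and 5 for the interaction. Blocked calls over all genes are given below for LPS with SF3a1 siRNA and for the interaction. Neither the other blocked counts nor most counts with 1 library left out have a share of all genes beside them. When any 1 library was left out, they ranged over 10 to 10 and 9 to 10 for LPS with control and SF3a1 siRNA, 2 to 5 for SF3a1 siRNA without LPS (2 without control siRNA replicate 2 or SF3a1 siRNA replicate 1), 6 to 8 with LPS and 3 to 5 for the interaction. Called exon bins of the enzymes were 0 throughout, the replicate block included. Bins of Nos2 and Slc7a2 had too few reads without LPS to show a change there. Of 647 fold changes recomputed, 612 kept their direction and side of the threshold. Among the 149 calls of related genes, 0 turned direction in these alternatives, and 0 (replicate block, which added 71 calls) to 17 (no filter) were lost, or 6 of 72 to 21 of 83 when 1 library was left out. DESeq2 also called the interaction for Nos2 (-2.63, adjusted p = 0.0348) and Cybb (-0.73, adjusted p = 0.0804), and Ptges for SF3a1 siRNA without LPS (-1.37, adjusted p = 0.0778). In these alternatives direction turned only for values without a call. For SF3a1 siRNA without LPS these were Nos2 (-1.06 to 0.51 leaving out 1 library, 0.82 without the 4 replicate 1 libraries), Slc7a2 (-0.75 to 0.53) and Ass1 (-0.21 to 0.58), both leaving out 1 library, and Sod2 (-0.072 without the 4 replicate 1 libraries). For the interaction they were Hmox1 (-0.71 to 0.25, the latter without control siRNA with LPS replicate 1) and Slc7a2 (-1.08 to 0.21). Over all genes, the replicate block raised the calls from 520 to 1756 for the interaction and from 1598 to 3115 for LPS with SF3a1 siRNA, and for the interaction DESeq2 gave 965, no filter 930 and the data without the 4 replicate 1 libraries 1012. Interaction calls fell to between 273 and 338 without replicate 2 or 3 of either siRNA without LPS. For LPS with SF3a1 siRNA they fell to 1050 and 1058 without SF3a1 siRNA without LPS replicate 1 and 2. For bins the block gave 285 against 123 and 105 against 39 for LPS, and 2113 against 961 and 1793 against 756 for SF3a1 siRNA, and limma-voom gave 21 against 39 for LPS with SF3a1 siRNA. In fits that kept at least 2 libraries per group, leaving out 1 library lowered bin calls to as few as 70 for LPS with control siRNA. For SF3a1 siRNA they fell to 527 without LPS and to 443 with LPS. Leaving out a control siRNA library with LPS leaves 1 library of that group, so those bin counts are not given. The causes were not tested. Depth limits Nos2, Slc7a2 and Ptges without LPS, which had 0 to 43 reads per library.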

Other observations

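The 9 macrophage markers, chosen to check the cell line's identity, moved in both directions. With LPS and control siRNA, 6 rose and 1 fell in edgeR's test, where 13.8% of all genes rose and 18.3% fell. With 1 library left out 4 to 6 rose, since the calls for Mrc1 (0.151 and 0.777 CPM), Adgre1 and Ptprc were lost for 4, 3 and 1 of 6 libraries. The log2 values ran from 1.71 to 3.08 for Mrc1 and from 0.47 to 1.14 for Adgre1. The integrin gene Itgam rose from 96.4 to 294 CPM, a mean carried by replicate 1 (551 CPM). Without that library it was 165 CPM and the log2 fold change went from 1.61 to 0.77 (adjusted p = 0.0343). Transcripts of Spi1, which encodes the macrophage transcription factor PU.1, rose from 495 to 848 CPM, whereas Csf1r, the receptor for the growth factor M-CSF, fell from 2935 to 1425 CPM. With SF3a1 siRNA, LPS changed 1 up (Spi1, 745 to 1292 CPM) and 1 down (Csf1r, 3357 to 2291 CPM), where 6.6% and 4.06% of all genes changed. With 1 library left out, 1 to 2 were up. The call for Csf1r there was lost without SF3a1 siRNA without LPS replicate 1 or with LPS replicate 2 (-0.50 and -0.45). Without LPS, SF3a1 siRNA gave 2 higher and 0 lower, where 13.7% and 20.1% of all genes were called. These were Spi1 (0.59, adjusted p = 0.0132) and Lyz2, which encodes lysozyme (0.47, adjusted p = 0.0707), and the call for Lyz2 was lost for 3 of 6 libraries left out (replicate 3 of control siRNA and replicates 2 and 3 of SF3a1 siRNA) and without the 4 replicate 1 libraries. Under LPS, Spi1 and Csf1r were 1.52-fold and 1.61-fold higher with SF3a1 siRNA than with control siRNA, and Fcgr1, Ptprc, the leukocyte phosphatase CD45, and Adgre1, the F4/80 antigen, were 9.21-fold, 1.59-fold and 1.63-fold lower. In this comparison 18.4% of all genes were higher and 20.4% lower. For Ptprc and Adgre1 the libraries overlapped, and their calls were lost without single libraries (control siRNA with LPS replicate 2 or SF3a1 siRNA with LPS replicate 1 for Ptprc, -0.51 and -0.53, and control siRNA with LPS replicate 1 or SF3a1 siRNA with LPS replicate 2 or 3 for Adgre1, -0.28, -0.61 and -0.61). Any part of these markers in the values of the 10 enzymes was not tested.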
